A study of Homo sapiens with 28 samples.

Results

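Zinc balance was followed in 10 genes: MTF1, a transcription factor that senses zinc, the 4 ZnT transporters SLC30A1, SLC30A5, SLC30A6 and SLC30A7, and the 5 ZIP transporters SLC39A1, SLC39A6, SLC39A8, SLC39A10 and SLC39A14. They were read from every probe set that the platform annotation gives to that gene alone, 33 of the 54675 probe sets on the array, whatever its values. The 10 genes are among 19775 with a probe set of their own, and were chosen with earlier results of these data known. Total RNA of 4 human myeloma cell lines, U266, MM.1s, KMS11 and 8226/S, had been hybridised to 28 Affymetrix expression arrays. Myeloma is a cancer of plasma cells, and each line is a permanent culture. Arsenic trioxide (ATO), an inorganic arsenic compound, was given at 2 µM for 6, 24 and 48 h to every line. Darinaparsin (DAR), an organic arsenic compound in which dimethylated arsenic is bound to glutathione, was given for 6 and 24 h at 4 µM to U266, 3 µM to MM.1s and KMS11, and 2 µM to 8226/S. Each line also had 2 untreated arrays, numbered control 1 and control 2, and all cells grew in the same serum-containing medium. Each treatment of a line has 1 array, so the 4 lines serve as the replicates of a treatment. P-values of treatment changes rest on a spread between lines that is shared by all 5 treatments, not on that of a single change. The test of untreated levels between lines instead uses the spread between the 2 untreated arrays of a line.

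ZnT proteins move zinc out of the cytosol, to the outside or into organelles, and ZIP proteins move it into the cytosol. When free zinc or certain other metals rise, MTF1 enters the nucleus, binds short DNA sequences called metal response elements and drives the metallothioneins, small metal-binding proteins, together with SLC30A1. In mouse cells MTF1 is also known to hold down Slc39a10 when zinc is plentiful. Plasma cells fold and secrete large amounts of protein, and the ZnT proteins of the secretory pathway supply zinc to the enzymes there.

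Signals are linear array values, scaled by the authors to a common mean on each array. Changes are differences of log2(value + 29), which understate changes of dim probe sets, and ATO was set against control 2 and DAR against control 1 of the same line. A gene is read by its brightest probe set, a call means a Benjamini-Hochberg adjusted p under 0.05 over 36706 probe sets tested with limma, and the error of a mean change is the standard error (SE) of that fit (n = 4 lines). The brightest probe set of each of the 10 genes was tested, and 29 of their 33 probe sets were above their array's median on at least 4 arrays. The other 4, one of several each for SLC30A1, SLC30A6, SLC39A8 and SLC39A14, never exceeded 168. The arrays fall into a set of 12 (control 1 and DAR, median signals 65.5 to 109) and a set of 16 (control 2 and ATO, 111 to 147). Between the untreated arrays of these sets 41.6% of probe sets were called, so ATO and DAR changes come from separate baselines and stand side by side, untested against each other. Plasma cell markers were above the array median for 5 to 7 of 7 genes on every array, and summed to 21514 to 81621 on treated arrays, against 36861 to 93584 on untreated ones. Of 4 markers each, 0 to 2 T cell, 0 to 3 myeloid and 0 to 4 fibroblast genes were above the median, with sums of 114 to 938, 155 to 1019 and 196 to 1628 on treated arrays, against 158 to 630.1, 67.7 to 435 and 189 to 1405 on untreated ones. Of 4 erythroid markers 2 had a probe set of their own, and these summed to 90.5 to 2390 on treated arrays, against 194 to 1799 on untreated ones. Of these, HBB was above the array median on 26 of the 28 arrays. Epithelial markers summed to 196 to 33298 on treated arrays, against 230.1 to 19338 on untreated ones. In untreated KMS11 and 8226/S EPCAM averaged 2890.3 and 8626. KRT18, KRT8 and CDH1 averaged 554, 128.1 and 15.7 in KMS11, against 6083.5, 280.6 and 1020.8 in 8226/S. The epithelial signal of KMS11 thus rests mostly on EPCAM. The part of these markers in the results was not tested.

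MTF1 itself was not called in any of the 5 comparisons of treated with untreated cells. Its mean changes lay between -0.30 and 0.14 (SE 0.18, lowest adjusted p 0.379 by limma). After 6 h of ATO its signal was 1181 in U266, 823 in MM.1s, 678 in KMS11 and 642 in 8226/S, against 1279.7, 756, 802 and 704 in control 2 of those lines. With DAR at 6 h it was 503, 331, 366 and 456 in the same order of lines, against 392, 364, 314 and 408 in control 1. Treated and untreated signals overlapped in both sets, and the other 2 MTF1 probe sets were not called in these comparisons either, with mean changes of 0.03 to 0.41.

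SLC30A1, the exporter of the plasma membrane, rose after ATO at every time and in every line. Its signal after 6 h of ATO was 7954 in U266, 10361 in MM.1s, 11087 in KMS11 and 5224 in 8226/S, against 762, 4215, 2109 and 1031 in control 2. The treated and untreated arrays did not overlap at this time. The mean change was 2.33 ± 0.27 on the log2 scale, 5.02-fold, with an adjusted p of 4.9e-06, and ranged from 1.29 in MM.1s, the line with the most untreated signal, to 3.34 in U266, the line with the least. The 4 lines also lay closer together: the highest signal was 2.12 times the lowest after 6 h of ATO and 5.53 times the lowest in control 2.

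At later times SLC30A1 stayed above control 2 in each line, with smaller changes than at 6 h. After 24 h of ATO the signals were 5606, 6792, 4797 and 1675 in U266, MM.1s, KMS11 and 8226/S, and after 48 h they were 4044, 6958, 5802 and 1924. The mean changes from control 2 were 1.34 ± 0.27 (adjusted p = 0.00471) and 1.35 ± 0.27 (adjusted p = 0.00196), about 2.54-fold and 2.56-fold. Without U266 the change at 24 h was 0.85 and missed the threshold (adjusted p = 0.109), and neither time was called when only its own arrays were fitted (adjusted p = 0.0771 and 0.0516). Set against 6 h, the 24 h level was lower in 4 of 4 lines, with changes of -1.62 to -0.50 and a mean of -0.98 ± 0.27 that was not called (adjusted p = 0.114). The other tested SLC30A1 probe set was also called at the 3 times, with mean changes of 2.49, 1.15 and 1.16.

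SLC30A1 was not called at either time of DAR. After 6 h of DAR the signals were 667 in U266, 10423 in MM.1s, 1166 in KMS11 and 1202 in 8226/S, against 567, 6117, 1822 and 1189 in control 1. MM.1s was above its control and KMS11 below it, and the mean change was 0.09 ± 0.27 (adjusted p = 0.879). The other tested probe set had a larger mean, 0.54 ± 0.32, also not called (adjusted p = 0.313), with 1.11 in U266, 1.61 in MM.1s, -0.60 in KMS11 and 0.04 in 8226/S. After 24 h of DAR the mean change was -0.14 ± 0.27 (adjusted p = 0.859). In 8226/S, where both agents were given at 2 µM, the 6 h change was 0.02 with DAR and 2.31 with ATO, a difference of -2.29 between single arrays and their controls that has no test.

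**Figure D1:**
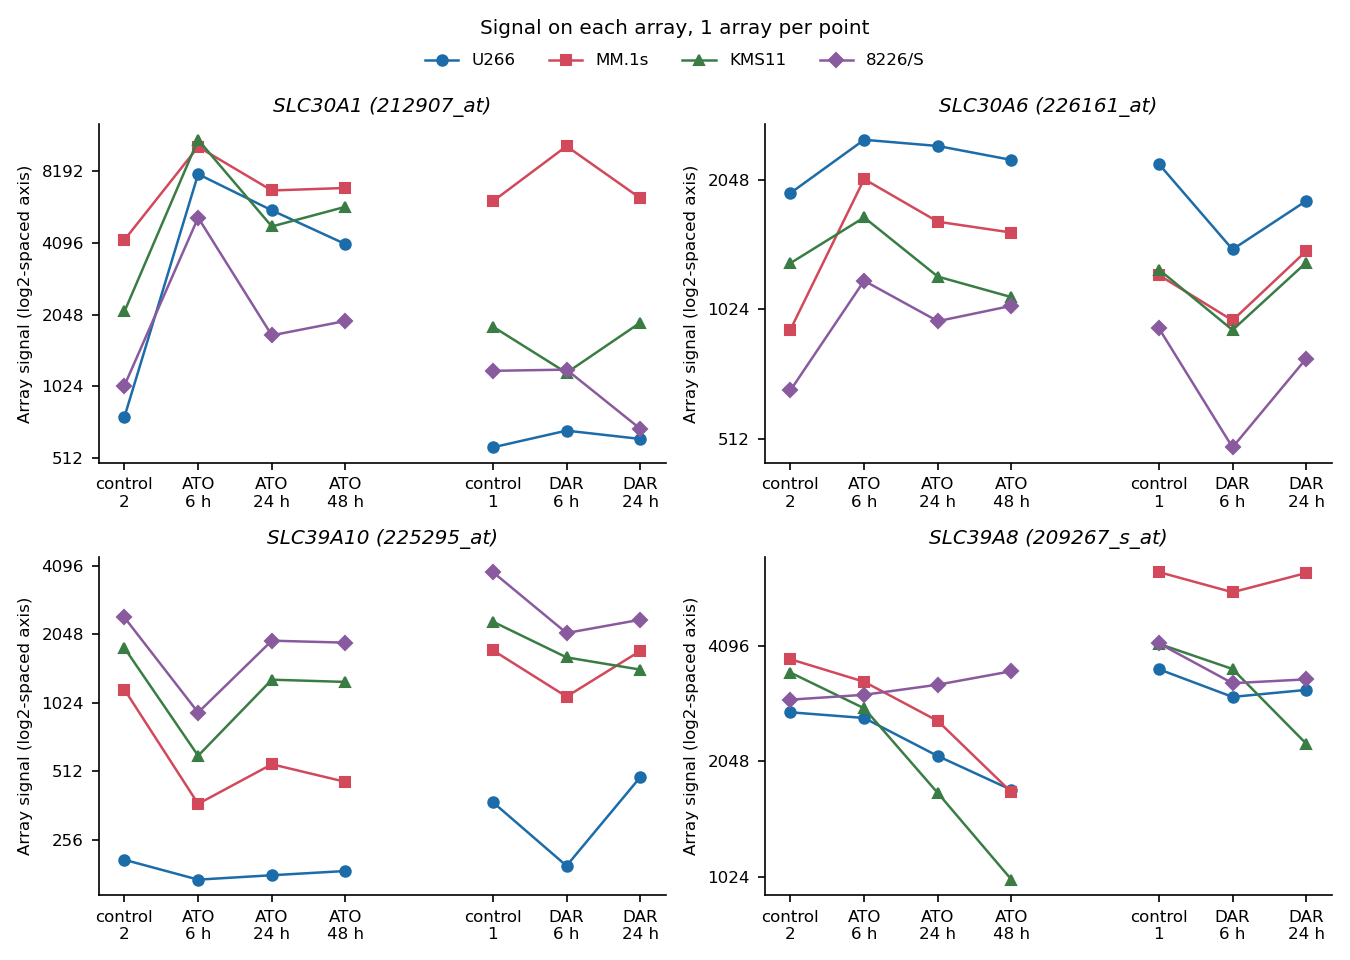
Array signal (vertical axis, log2-spaced) of the brightest probe set of SLC30A1, SLC30A6, SLC39A10 and SLC39A8 in the 4 cell lines, for control 2 followed by 6, 24 and 48 h of ATO and for control 1 followed by 6 and 24 h of DAR; each point is 1 array and lines join arrays of a cell line. SLC30A1 lies between 5224 and 11087 after 6 h of ATO, above all control 2 arrays, SLC39A10 has its lowest ATO signal at 6 h in each line, and SLC39A8 at 48 h of ATO is below control 2 in U266, MM.1s and KMS11 and above it in 8226/S.

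Over the 10 genes, 3 were called after 6 h of ATO, 1 after 24 h and 2 after 48 h. Of all probe sets tested, 4.11%, 3.35% and 8.44% were called at those times. With 1 probe set per gene, as the 10 genes were counted, 6.41%, 5% and 11.7% of 15438 were called. After DAR 2 of the 10 were called at 6 h, beside 12.4% of all probe sets, and 0 at 24 h, beside 0.954%. With 1 probe set per gene these shares were 13.2% and 0.622%. At 24 h 0 of the 10 had an unadjusted p under 0.05 either, beside 14.5% of all. The median change of the 10 genes was -0.08 after 6 h of ATO and -0.15 after 6 h of DAR, where all probe sets had medians of 0.0071 and 0.025. The comparisons at several times of 1 agent share their control arrays. Because the 10 genes were chosen with earlier results of these data known, no excess over all probe sets is read from these counts.

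**Figure D2:**
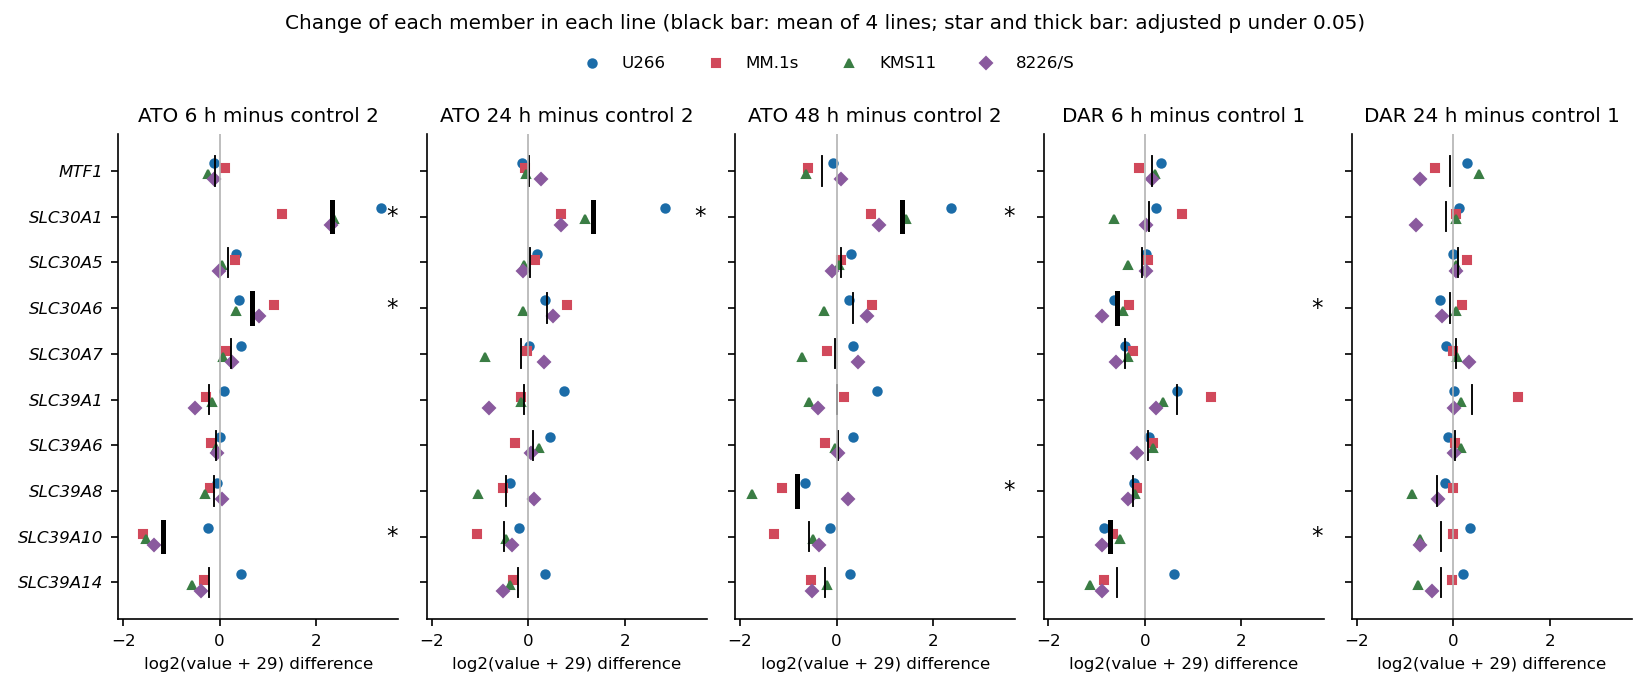
Change of each of the 10 genes (rows) in log2(value + 29) from the line's own control (horizontal axis) in the 5 comparisons (panels); coloured symbols are the 4 lines, the black bar is their mean, and a star with a thick bar marks an adjusted p under 0.05. SLC30A1 is marked in the 3 ATO panels, SLC30A6 at 6 h of both agents on opposite sides of 0, SLC39A10 at 6 h of both agents on the lower side, and SLC39A8 at 48 h of ATO.

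The metallothioneins are the best-known MTF1 targets. Of 11 listed genes 9 had a probe set of their own and 7 were tested, and 6 of them were higher after ATO at each of the 3 times, with medians over the 7 of 4.47, 3.86 and 3.51, against medians of 0.0071, 0.017 and 0.039 over all probe sets. MT2A, the main metallothionein of most human cells, had signals of 32721, 37641, 28111 and 29389 in U266, MM.1s, KMS11 and 8226/S after 6 h of ATO, against 571, 545, 416 and 3397 in control 2. The treated and untreated arrays did not overlap, and the mean change was 5.22 ± 0.37 (adjusted p = 2.6e-09), with the least, 3.10, in 8226/S, the line with the most untreated signal. Mean changes of MT1H, MT1X, MT1G, MT1E and MT1F at 6 h were 7.16, 6.25, 4.47, 4.26 and 4.23, and their probe sets may share signal because the genes are near-identical. MT3, a form found mostly in brain, was not called (0.15 at 6 h). Of the 7, only MT1E was called after 6 h of DAR (1.28 ± 0.33, adjusted p = 0.00998), and 0 of 7 after 24 h. The MT1E signals were low, at 41.6, 70.5, 27.5 and 106 in U266, MM.1s, KMS11 and 8226/S in control 1. After 6 h of DAR they were 89.7, 176, 148 and 406. Of all probe sets 12.4% and 0.954% were called at the 2 DAR times, so nothing particular to the metallothioneins is read from these DAR counts. At 24 h 2 of the 7 had an unadjusted p under 0.05, beside 14.5% of all probe sets. This list, like the others here, was chosen with results of these arrays known.

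**Figure D3:**
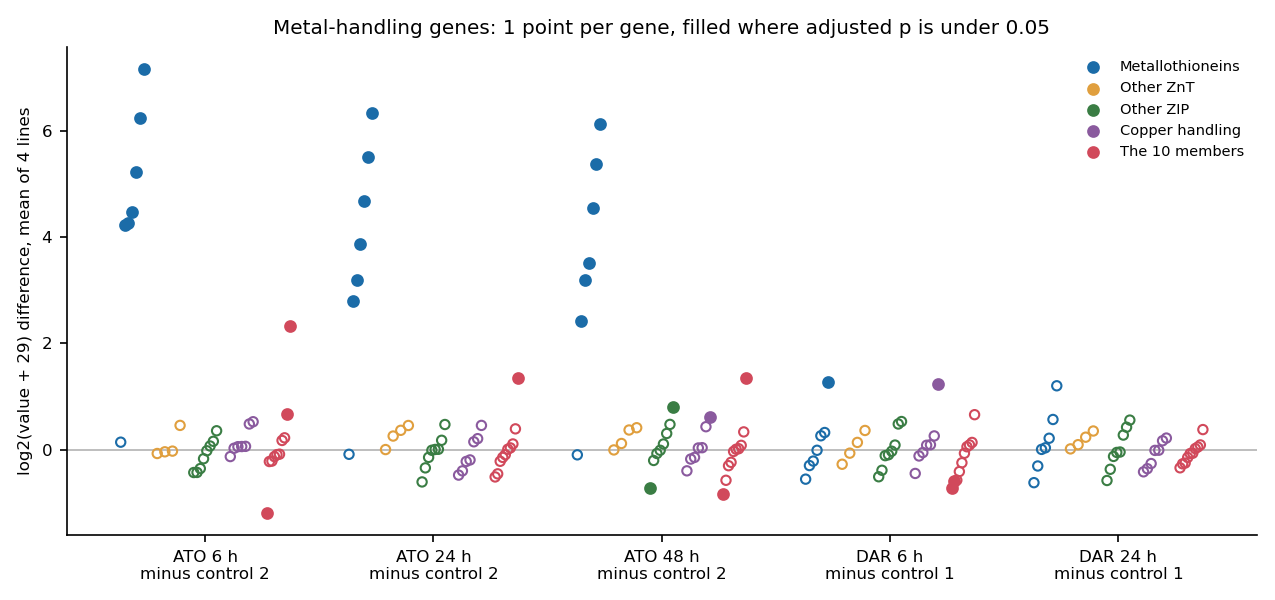
Mean change over the 4 lines in log2(value + 29) (vertical axis) of each tested gene of 4 metal-handling lists and of the 10 zinc genes in the 5 comparisons (horizontal axis); 1 point is 1 gene, filled where its adjusted p is under 0.05. In the ATO comparisons 6 metallothioneins lie between 2.42 and 7.16, above SLC30A1, which lies at 2.33, 1.34 and 1.35 at the 3 times.

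The other transporters and the copper genes are given beside the shares of all probe sets called, which were 4.11%, 3.35% and 8.44% after 6, 24 and 48 h of ATO and 12.4% and 0.954% after 6 and 24 h of DAR. Of the 4 tested ZnT genes outside the 10, 0 were called by limma in the 5 comparisons, and 1 had an unadjusted p under 0.05 once, after 6 h of ATO. SLC30A4, an exporter of intracellular vesicles, had a mean change of 0.46 at that time (adjusted p = 0.302). Of 8 tested ZIP genes outside the 10, SLC39A11 was higher (0.80 ± 0.20, adjusted p = 0.0129) and SLC39A4, the zinc importer of the gut, lower (-0.71 ± 0.20, adjusted p = 0.0261), both after 48 h of ATO. Of 7 copper-handling genes, the chaperone ATOX1 was higher after 48 h of ATO (0.61) and the mitochondrial chaperone COX17 after 6 h of DAR (1.25). The COX17 signals were low, at 25.7, 104, 19.3 and 10.6 in U266, MM.1s, KMS11 and 8226/S in control 1. After 6 h of DAR they were 25.8, 189, 143 and 186, so U266 hardly changed. At 6 and 24 h of ATO 0 genes of these 3 lists were called, with 1, 2 and 0 ZnT, ZIP and copper genes at an unadjusted p under 0.05 at 6 h and 0, 2 and 2 at 24 h. Of all probe sets 16% and 15.3% had such a p at these times, so nothing particular to the lists is read from the counts.

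Promoters were searched for the core of the metal response element, TGCACNC or TGCGCNC on either strand, in RefSeq windows (GRCh38.p14) from 250 bases before to 50 after a transcription start. Of the 10 genes 9 matched an entry, and 6 of these had a match in at least 1 of their 13 windows: SLC30A1 with 2, and SLC30A6, SLC39A1, SLC39A6, SLC39A8 and SLC39A10 with 1. MTF1, SLC30A5 and SLC30A7 had none, and SLC39A14 is named only. Counted by window, 6 of the 13 held a match. A match was present in 29.6% of all 35116 windows and 2 or more in 8.60%, so a single match is common. The sequences of SLC30A1 and MT2A are shown because both genes rose in every line after ATO, and a piece of SLC39A10 because that gene fell. They run 5′ to 3′ on the gene's strand, in lower case with matches in capitals. SLC30A1, the 250 bases upstream, lies at chr1:211579162-211579411 on the minus strand, and its match spans positions -49 to -43 from the start. Its other match, in the 30-base piece at chr1:211579119-211579148, spans 25 to 31 after the start. MT2A upstream lies at chr16:56608334-56608583 on the plus strand and holds 7 of the 8 matches of that window. The SLC39A10 piece lies at chr2:195657246-195657275 on the plus strand, after the more downstream of the starts listed for that gene. A match describes the letters only and is no measured binding site.
SLC30A1 upstream: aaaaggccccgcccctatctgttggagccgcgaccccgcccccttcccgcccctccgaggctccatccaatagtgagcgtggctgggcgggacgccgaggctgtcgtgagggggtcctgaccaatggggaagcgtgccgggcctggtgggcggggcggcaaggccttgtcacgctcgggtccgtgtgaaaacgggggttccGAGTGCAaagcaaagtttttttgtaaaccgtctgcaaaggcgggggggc
SLC30A1 after the start: gagaccgggccGAGTGCAgctgccgtggcc
MT2A upstream: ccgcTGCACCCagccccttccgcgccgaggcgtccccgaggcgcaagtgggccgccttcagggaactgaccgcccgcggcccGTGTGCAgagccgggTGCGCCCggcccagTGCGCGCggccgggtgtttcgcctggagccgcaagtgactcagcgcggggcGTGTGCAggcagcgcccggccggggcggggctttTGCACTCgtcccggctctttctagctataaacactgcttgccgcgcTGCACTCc
SLC39A10 after the start: agcggagaggagaTGCACACggcactcgag

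Of the transporters of the secretory pathway, SLC30A6 changed in opposite directions with the agents at 6 h when read by its brightest probe set. SLC30A6 (ZnT6) carries no zinc by itself and pairs with SLC30A5 (ZnT5) to load zinc into enzymes such as alkaline phosphatase. Its signal after 6 h of ATO was 2533 in U266, 2054 in MM.1s, 1673 in KMS11 and 1193 in 8226/S, against 1906, 919, 1311 and 665 in control 2. Each line was higher, though the ranges of the groups overlapped, and the mean change was 0.68 ± 0.14 (1.60-fold, adjusted p = 0.00547). The other 2 tested probe sets were not called and were each higher in 3 of 4 lines, with means of 0.48, lower in MM.1s (adjusted p = 0.468), and 0.20, lower in 8226/S (adjusted p = 0.667), so the call rests on the brightest probe set alone. Without MM.1s, which had the largest change, 1.13, the mean was 0.52 and not called (adjusted p = 0.116), nor was it with only the arrays of the comparison (0.0611). At 24 and 48 h of ATO the mean changes were 0.40 and 0.34, neither called, with KMS11 below its control at both times.

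With DAR, SLC30A6 fell in every line at 6 h. Its signals were 1410.4, 965.5, 917 and 490.1 in U266, MM.1s, KMS11 and 8226/S, against 2226, 1229.9, 1267 and 926 in control 1. The mean change was -0.58 ± 0.14 (adjusted p = 0.0065), and -0.48 without 8226/S, where it missed the threshold (adjusted p = 0.0807). By 24 h of DAR the signals were 1828, 1398, 1315 and 787, higher than at 6 h in each line by a mean of 0.51 ± 0.14 (adjusted p = 0.024). This was the only one of the 10 genes called between the DAR times, where 7.39% of all probe sets were, and it missed the threshold when any 1 line was left out (adjusted p 0.068 to 0.118). The other 2 tested SLC30A6 probe sets had changes of 0.34 and 0.11 at 6 h of DAR, neither called, so the fall rests on the brightest probe set alone.

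SLC30A5 and the Golgi exporter SLC30A7 were not called in any treatment comparison. The brightest SLC30A5 probe set stayed between 1516 and 2482 on all 28 arrays, and its mean changes between -0.06 and 0.18 (SE 0.10, lowest adjusted p 0.428). The other tested SLC30A5 probe sets ranged more widely, over 1307 to 2309, 762 to 2435, 183 to 1083 and 43 to 486. The probe set at 183 to 1083 was lower in MM.1s, KMS11 and 8226/S and higher in U266 at both DAR times. At the 6 h times, when its partner SLC30A6 was called, SLC30A5 had mean changes of 0.18 with ATO and -0.06 with DAR. SLC30A7 after 6 h of DAR had 576, 633, 429.6 and 316 in U266, MM.1s, KMS11 and 8226/S, against 776, 760.4, 559 and 495 in control 1. All 4 lines were lower, but the mean change of -0.41 ± 0.18 was not called (adjusted p = 0.141). Another SLC30A7 probe set was also lower in each line. The dimmest was higher in U266, MM.1s and KMS11 (0.31, 0.55 and 0.96) and lower in 8226/S (-1.07).

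Among the importers SLC39A10 fell at 6 h with both agents. SLC39A10 (ZIP10) is a plasma membrane importer that pairs with SLC39A6 (ZIP6) and supports B cell survival in mice. After 6 h of ATO its signal was 171 in U266, 369 in MM.1s, 599.8 in KMS11 and 929 in 8226/S, against 209, 1171, 1783 and 2429 in control 2. The mean change was -1.18 ± 0.21 (2.27-fold lower, adjusted p = 0.00112). It was between -1.59 and -1.36 in MM.1s, KMS11 and 8226/S and -0.25 in U266, the line with the lowest untreated signal. At 24 h of ATO the signals were 179, 550.3, 1295 and 1921 and at 48 h 187, 460.5, 1266 and 1883, lower than control 2 in each line but with mean changes of -0.51 and -0.57 that were not called (adjusted p = 0.209 and 0.0924). The 48 h change was called without U266 (-0.71, adjusted p = 0.0311), the line with the smallest change at that time (-0.14). With all untreated arrays pooled both were called (-0.80 and -0.87, adjusted p = 0.0351 and 0.0132). SLC39A10 was lower in control 2 than in control 1 (-0.59), so pooling carries part of that difference into the ATO changes. The pooled calls are therefore no separate evidence of a fall at these times.

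With DAR, SLC39A10 had 6 h signals of 197 in U266, 1091 in MM.1s, 1623 in KMS11 and 2076 in 8226/S, against 375, 1744, 2329.6 and 3846 in control 1. Each line was lower, with changes of -0.88 to -0.51 and a mean of -0.72 ± 0.21 (1.65-fold lower, adjusted p = 0.0208). This call held in 7 of 12 alternative settings and the ATO call in 12 of 12. The DAR call was lost without MM.1s, KMS11 or 8226/S (adjusted p = 0.0673, 0.0531 and 0.12), with quantile normalization (0.0541) and with all untreated arrays pooled, where the mean was -0.43 (0.199). Pooling carries part of the difference between the controls into that mean too. At 24 h of DAR the mean change was -0.26 ± 0.21 (adjusted p = 0.604), with U266 above its control and KMS11 and 8226/S at -0.69. SLC39A6, its partner, was not called in any treatment comparison, with mean changes of -0.08 to 0.11 (SE 0.10).

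SLC39A8 (ZIP8), which carries manganese and cadmium besides zinc, was called only at the longest ATO exposure. Its signal after 48 h of ATO was 1726 in U266, 1702 in MM.1s, 1009 in KMS11 and 3513 in 8226/S, against 2747, 3773, 3484 and 2963 in control 2. It was lower in U266, MM.1s and KMS11, most in KMS11, where the change was -1.76, and 8226/S lay above its control. The mean change was -0.83 ± 0.20 (1.77-fold lower, adjusted p = 0.00872), and 1 of the 4 other tested probe sets was called as well (-0.87, adjusted p = 0.00804). The other 3 were not called, with means of -0.69, -0.06 and -0.01 (adjusted p = 0.263, 0.938 and 0.99), so the fall depends on the probe set read. These 3 were dim, with median signals over all arrays of 62, 124 and 187 in the same order. The called probe sets had medians of 3191 and 2001. At 6 and 24 h the means were -0.13 and -0.45, neither called. The 48 h call was lost without U266, MM.1s or KMS11 (means -0.88, -0.73 and -0.52, adjusted p = 0.0514, 0.118 and 0.137) and when only the arrays of the comparison were fitted (0.172). Without 8226/S, the line above its control at 24 h too, the 24 h change was called as well (-0.64, adjusted p = 0.0483). This was its only call in 12 alternatives.

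SLC39A14 (ZIP14), an importer of zinc, manganese and iron, differed by line in direction when read by its brightest probe set. After 6 h of DAR its signal was 2856 in U266, 2218 in MM.1s, 1185 in KMS11 and 3334 in 8226/S, against 1862, 4039, 2644 and 6202 in control 1. U266 was higher and the other lines lower, and the mean of -0.57 ± 0.20 was not called (adjusted p = 0.0596). Without U266 it was -0.96 and called (adjusted p = 0.000264), the only call in 12 alternatives. Leaving out the line that went the other way makes the mean more negative, so this call is no separate evidence of a fall. U266 was above its own control on 5 of 5 treated arrays, by 0.20 to 0.61, and each of the other lines below its own on 5 of 5. These arrays share their controls, and the test of a difference in response between lines was not passed (adjusted p = 0.246). The other tested SLC39A14 probe set does not show the opposite direction of U266 at 6 h of DAR: it was lower there in all 4 lines (-0.63 ± 0.16, adjusted p = 0.00817), with -0.27 in U266, and at 48 h of ATO as well (-0.50 ± 0.16, adjusted p = 0.0462). In U266 that probe set was above its control only at 6 h of ATO (0.21). It was at -0.16 and -0.26 after 24 and 48 h of ATO and at -0.20 after 24 h of DAR. The direction of U266 therefore rests on the brightest probe set alone.

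SLC39A1 (ZIP1), a plasma membrane importer found in most cells, came closest to a call at 6 h of DAR. Its signals there were 1221 in U266, 554 in MM.1s, 625 in KMS11 and 504 in 8226/S, against 755, 197, 473 and 428 in control 1. All 4 lines were higher, with MM.1s furthest from its control, and the mean of 0.66 ± 0.22 missed the threshold (adjusted p = 0.0501). Its control 1 arrays were also low beside control 2 in each line, and with all untreated arrays pooled the mean was 0.14. With ATO the lines went different ways: at 48 h U266 had 2268, against 1251 in control 2, while KMS11 had 563, against 847.

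**Figure D4:**
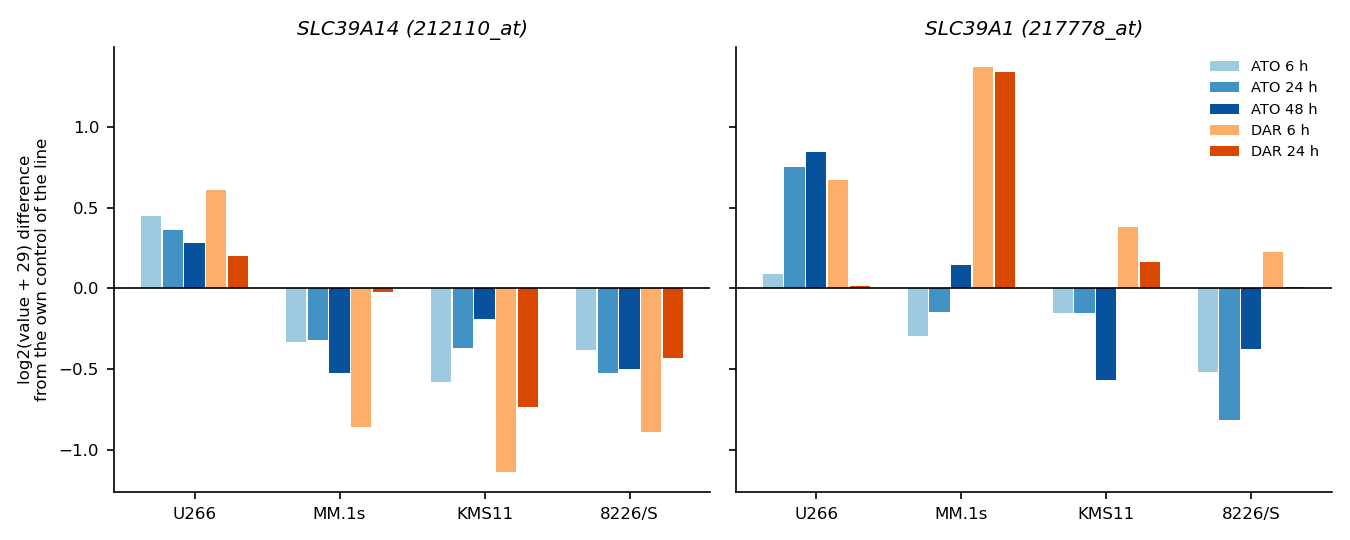
Change in log2(value + 29) from the line's own control (vertical axis) of the brightest probe sets of SLC39A14 and SLC39A1 in the 4 lines (horizontal axis); each bar is 1 treated array, blue for ATO at 6, 24 and 48 h and orange for DAR at 6 and 24 h. All 5 SLC39A14 bars of U266 are above 0 and all those of the other lines below, and the SLC39A1 bars of MM.1s with DAR reach 1.37 and 1.34.

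The response averaged over the 5 treatments was tested for a difference between lines. None of the 10 genes passed (0.0327% of all probe sets did), with 1 of them at an unadjusted p under 0.05, beside 7.67% of all. Between 24 and 6 h of ATO 0 of the 10 were called, beside 0.392% of all probe sets. An unadjusted p under 0.05 was reached by 3 of the 10 and by 9.85% of all. Between 48 and 24 h of ATO 0 of the 10 were called, as were 0% of all probe sets, with 0 of the 10 and 2189 of all at an unadjusted p under 0.05. SLC39A10 was higher at 24 h than at 6 h of ATO in each line, by a mean of 0.67 ± 0.21, which was not called (adjusted p = 0.181).

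In untreated cells 3 of the 10 genes differed between lines, beside 11.6% of all probe sets and 16.4% with 1 probe set per gene. SLC30A1 averaged 665 in U266, 1110 in 8226/S, 1966 in KMS11 and 5166 in MM.1s (limma F test, adjusted p = 0.00294). The untreated arrays of neighbouring lines in this order did not overlap. SLC39A10 had 375 and 209 in U266, 1744 and 1171 in MM.1s, 2329.6 and 1783 in KMS11, and 3846 and 2429 in 8226/S on controls 1 and 2 (adjusted p = 0.00475). Neighbouring lines did not overlap here either, though MM.1s control 1 and KMS11 control 2 lay close, at 1744 and 1783. SLC39A14 was highest in 8226/S, at 6202 and 4673, and lowest in U266, at 1862 and 1535 on controls 1 and 2 (adjusted p = 0.0411), with KMS11 and MM.1s overlapping between them. Without U266 only SLC30A1 of the 3 was called (adjusted p = 0.264 for SLC39A10 and 0.159 for SLC39A14), and SLC39A14 also lost its call without 8226/S (0.304) and with arrays centred on their medians (0.337). With the control number as a block, which removes the difference between the array sets, 7 of the 10 were called, SLC30A6, SLC39A1, SLC39A6 and SLC39A8 besides these 3, but so were 43.9% of all probe sets. The other tested probe sets of SLC30A1 and SLC39A14 were not called between lines without the block (adjusted p = 0.0546 and 0.211), and SLC39A10 has no other. SLC30A6 averaged 795 in 8226/S, 1075 in MM.1s, 1289 in KMS11 and 2066 in U266, and of neighbours in this order only 8226/S and MM.1s overlapped. SLC39A8 averaged 3151 to 5065 and SLC39A6 5345 to 7714, with overlapping neighbours throughout. MTF1, SLC30A5 and SLC30A7 were not called between lines either way.

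**Figure D5:**
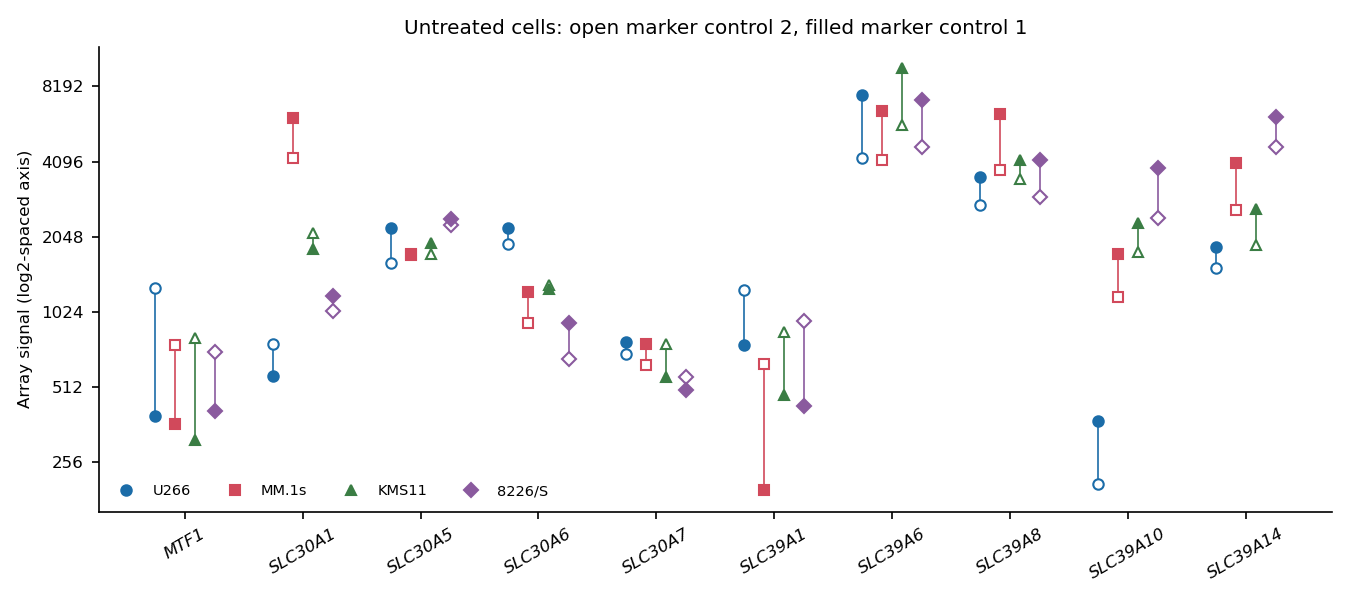
Array signal (vertical axis, log2-spaced) of the brightest probe set of the 10 genes in untreated cells; colours are the 4 lines, open markers control 2, filled markers control 1, and a bar joins the 2 arrays of a line. SLC30A1 and SLC39A10 show the widest separation of lines, and for MTF1 and SLC39A1 control 2 is above control 1 in each line.

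The numbered controls themselves differed. Of the 10 genes 6 were called between control 2 and control 1, beside 41.6% of all probe sets, whose median change was 0.26. MTF1 was higher in control 2, at 1279.7, 756, 802 and 704 in U266, MM.1s, KMS11 and 8226/S, against 392, 364, 314 and 408 in control 1 (1.16 ± 0.18, adjusted p = 0.000683). This rests on the brightest MTF1 probe set: of the other 2, neither called, one had a mean of 0.20 and the other was lower in control 2 in all 4 lines, at 559, 302, 403 and 262, against 681, 549, 440 and 419 in control 1 (-0.45, adjusted p = 0.0721). SLC39A1 was higher as well (1.04 ± 0.18), while SLC39A6 (-0.71), SLC39A10 (-0.59), SLC39A8 (-0.46) and SLC39A14 (-0.44) were lower. These 6 kept their signs with quantile normalization and with each array centred on its median, but with quantile normalization SLC39A8 was at -0.27 and no longer called (adjusted p = 0.0763). Probe sets of the same gene did not move together: for 3 genes, SLC39A6, SLC39A8 and SLC39A14, called probe sets lay on both sides of 0, as for SLC39A14 with -0.44 and 0.62. A change measured across the sets therefore depends on the probe set read.

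The genes most like SLC30A1 over the 20 changes of treated arrays from their controls, among 15428 tested genes, were MT1HL1 (Pearson r = 0.845), a metallothionein copy, then BET1L (0.809), NBN (0.799), DDX52 (0.796) and HDAC8 (0.790). MT2A had r = 0.760 and MT1X 0.690. Of the 10 genes, SLC30A5 (0.494), SLC30A6 (0.477) and SLC39A14 (0.460) came nearest, and MTF1 (-0.160) and SLC39A10 (-0.080) lay near 0. For MTF1 the highest were HPCAL4 (0.760), H3-3A (0.743), STIM2 (0.737), LYPD4 (0.724) and GATA1 (0.713). These are descriptions over arrays that share controls within a line and set.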

How the data were processed

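The 28 arrays were grouped by the labels' line, agent, time and control number. The intensity values in the deposited table are GCOS signals, per the submitters' processing notes (version not given in the sources used here). Each array's trimmed mean was near 500.1, a common scaling by the authors, and no further scaling was applied. Members and gene lists were chosen with earlier results of these data known. Array precision is limited by 1 array per line and treatment.

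Values were taken as log2(value + 29). The 62 array controls were left out, and 36706 probe sets above their array's median on at least 4 of 28 arrays were tested with limma 3.58.1 in R 4.3.3 (lmFit, eBayes with trend, 15 residual degrees of freedom). The model holds 8 baselines (line by control number) and 5 treatment terms. Line differences used F tests. Symbols came from the platform annotation, updated through RefSeq: 41091 probe sets carry 1 symbol, 1801 several and 11721 none.

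All 10 members are named, each by its brightest probe set, other probe sets where their direction differs from it or by counts, at most 6 genes per list, and the 5 genes most correlated with SLC30A1 and with MTF1. Further probe sets with a call were named after their values were seen. The control numbers pair the untreated arrays: deviations of same-numbered arrays from their line's mean correlated at 0.507 to 0.627 over 6 pairs of lines. No array was a copy of another (highest r 0.966). Compared with the untreated arrays of its own line only, each of 20 treated arrays was closest to the control number it is set against here. Untreated arrays of other lines were not compared. The labels do not say whether arrays come from separate cultures, so the spread may be partly technical. Offsets, scaling, filtering, pooled controls, arrays in the fit and each line left out were tried as alternatives.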

Additional observations from a re-analysis of the deposited data

Results flagged for a closer look

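Dixon's test was applied to the 4 lines' changes of each gene in each treatment comparison, 50 groups in all, of which 4 held a far value. Chance flags about 1 group in 20. SLC30A5 after 6 h of DAR changed by -0.346 in KMS11, where the other lines lay between 0.012 and 0.057. SLC39A14 after 6 h of DAR changed by 0.610 in U266, while MM.1s, KMS11 and 8226/S lay between -1.14 and -0.857. SLC30A1 after 24 h of DAR changed by -0.782 in 8226/S, where the others lay between 0.045 and 0.112. SLC39A1 after 24 h of DAR changed by 1.34 in MM.1s, while U266, KMS11 and 8226/S lay between 0.0093 and 0.163.

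The agents gave opposite directions in every line at 6 h for 2 genes when read by the brightest probe set. SLC30A6 had mean changes of -0.580 with DAR and 0.676 with ATO, but its other 2 tested probe sets had means of 0.34 and 0.11 with DAR. SLC30A7 had mean changes of -0.407 with DAR and 0.227 with ATO, neither called. Another SLC30A7 probe set had opposite directions in every line too, but the dimmest was higher with DAR in U266, MM.1s and KMS11. The difference between agents was not tested, because doses differ in 3 lines and the agents have separate control arrays.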

How the results depend on the processing

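Counts of the 10 genes called moved by more than 1.5 times under some settings, and the cause was not tested. The share of all probe sets called under the same setting follows each count in parentheses. With quantile normalization 1 was called after 6 h of DAR (10.3%) and 0 between the DAR times (5.78%). With arrays centred on their medians 0 were called between the DAR times (5.58%) and 10 between the controls (41.1%). With the 8 controls pooled (no replicate block) 2 were called after 24 h of ATO (5.58%) and 1 after 6 h of DAR (14.2%). With only the arrays of a comparison, which leaves fewer samples, 0 were called after 24 h of ATO (1.37%), after 48 h of ATO (0.768%) and between the DAR times (3.14%). With the control number as a replicate block 7 differed between untreated lines (43.9%). Leaving out 1 line in turn gave 0 to 2 after 24 h of ATO (0.801% to 4.11%), 1 to 2 after 48 h (2.75% to 9.63%), 0 to 3 after 6 h of DAR (7.02% to 10.8%), 0 to 1 between the DAR times (3.59% to 5.58%) and 1 to 3 between untreated lines (4.98% to 9.08%). SLC30A1 and SLC39A10 after 6 h of ATO were called in 12 of 12 alternatives. Of 600 alternative values of single genes 541 kept direction and side of the threshold, 15 lost and 5 gained a call, and 39 uncalled values changed sign. Averaged over the tested probe sets of a gene, an alternative chosen after seeing the data and without a test, the log2 difference from control was 2.41 for SLC30A1 and 0.45 for SLC30A6 after 6 h of ATO, -0.04 for SLC30A6 after 6 h of DAR, and -0.49 for SLC39A8 after 48 h of ATO.

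Counts over all probe sets moved too. After 24 h of DAR the count was 350, against 158 with quantile normalization, 231 with median centring, 1312 with pooled controls, 150 with its own arrays, and 13 and 15 without 8226/S and KMS11. With its own arrays 686, 503 and 282 were called after 6, 24 and 48 h of ATO, against 1510, 1228 and 3098, and pooled controls gave 2050 and 4846 at 24 and 48 h. Leaving out 1 line gave as few as 350, 294 and 1010 at these times and 2577 after 6 h of DAR (4537 with all). Between the DAR times 1153 were called with own arrays and as few as 1319 with a line left out (2714 in all). Between 24 and 6 h of ATO 11 to 249 were called (144), between 48 and 24 h 0 to 16, for the response between lines 2 to 28 (12), and between untreated lines 16100 with the block and 1829 without U266 (4256). A single probe set per gene gave 990, 772, 1812, 2036 and 96 in the treatment comparisons, 71 and 1184 between ATO and between DAR times, 7 and 2529 between lines in response and untreated level, and 6939 between controls, of 15438 tested. Median centring moved the share of higher calls to 28.9% (47.5% before) after 48 h of ATO, 34.9% (48.8%) and 56.7% (75.1%) after 6 and 24 h of DAR, 13.2% (25.7%) between 24 and 6 h of ATO (quantile 38.2%), and 24.8% (69.1%) between controls (quantile 51.1%).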
